A study of Mus musculus with 12 samples.

Results

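The genes described here are the 2 receptors that bind corticosterone in the rodent brain, Nr3c1 (the glucocorticoid receptor) and Nr3c2 (the mineralocorticoid receptor), with 8 genes known to respond to glucocorticoids or to cellular stress: Fkbp5, Sgk1, Tsc22d3, Hif3a, Zbtb16, Errfi1, Cdkn1a and Plin4. They were taken from the count files by symbol, to ask whether training raised glucocorticoid targets in either genotype. All 10 were among the 24421 genes of the count files, and all 10 were among the 15622 genes that passed a filter on low counts. Polyadenylated RNA was sequenced from the dorsal hippocampus of 12 male 129sv/C57BL/6j mice aged 4 to 5 months. There were 3 mice in each of 4 groups: Mbnl2 KO trained, Mbnl2 KO house control, Mbnl2 WT trained and Mbnl2 WT house control. Neither the learning task, nor how long after it the tissue was taken, nor how Mbnl2 was disrupted is stated in the labels. Mbnl2 codes for a muscleblind-like protein that binds RNA and regulates splicing.

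Glucocorticoid hormones enter cells and bind receptors held in the cytoplasm by heat shock proteins and immunophilins. The bound receptor moves to the nucleus and binds short DNA elements, or other transcription factors, to raise or lower its targets. In the hippocampus both receptors are present, the mineralocorticoid receptor with the higher affinity for hormone, so that the glucocorticoid receptor is mainly engaged when corticosterone is high, as in stress and at the daily peak.

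Animal numbers in the labels fall into a lower and a higher series, of 8 and 4 libraries, with 2 and 1 per group. Total counts ran from 19737929 to 27427076 per library. Levels are given as CPM, read counts scaled to a common library size by TMM, and 3 counts correspond to 0.109 to 0.152 CPM, a limit that covers counting error only. The gene-level count of Mbnl2 went against its label: the 6 KO libraries had 453.9 to 541.8 CPM and the 6 WT libraries 315.2 to 365.4 CPM, without overlap (edgeR adjusted p = 0.00626, with a log2 fold change of 0.51 and an SE of 0.05). Whether these counts cover the deleted part is not given, so every direction between genotypes below is that of the labels. Hippocampal markers were present in every library, with summed levels of 248.5 to 998 CPM for 7 dentate granule neuron markers and 273 to 806.3 CPM for 6 CA1 pyramidal neuron markers. Markers of neighbouring tissue varied widely: the 9 choroid plexus markers summed to 46.6 to 15020 CPM, the 8 striatal and septal markers to 218.7 to 1532 CPM, and the 9 oligodendrocyte markers to 2798 to 13920 CPM. Blood markers summed to 1.55 to 6.28 CPM, and of the 12 marker lists only blood had genes at 0. KO house control replicate 3 and, among the WT house controls, replicates 2 and 3 held the highest summed thalamic markers, at 211 to 316 CPM against 46.2 to 188 CPM in the other 9. KO replicate 2 of both treatments held the highest striatal markers, at 1532 CPM when trained and 1148 CPM as a house control, with WT house control replicate 3 next at 999 CPM. The training differences of all 10 members without these 3 and without the KO replicates 2 are given after the members. In bulk tissue, fewer cells of a type and less RNA per cell cannot be told apart.

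No member passed the threshold of 0.05 on the adjusted p for training in either genotype. In KO mice, trained against house control, all 10 had a positive log2 fold change, with a median of 0.24, where 49.1% of tested genes were positive. In WT mice 9 of 10 were positive, with a median of 0.27, where 48.3% of tested genes were positive with a median of -0.01. Several members were low in the same libraries, as given below, so these signs are not separate counts. The KO values of Nr3c1, Nr3c2, Sgk1, Tsc22d3 and Plin4 turned in sign under at least 1 alternative. So did the WT values of Nr3c2, Sgk1 and Errfi1. The largest differences were those of Cdkn1a in KO mice and of Hif3a and Zbtb16 in WT mice. Sgk1 and Tsc22d3, widely used as readouts of the receptor, differed by 1.13-fold to 1.182-fold in both genotypes, with 95% intervals of the log2 fold change that included 0. The test was edgeR's quasi-likelihood test, with p adjusted over all genes by the Benjamini-Hochberg method, and 0% of the 15622 tested genes passed for training in KO, in WT, or over both genotypes. At an unadjusted p under 0.05 there were 471 genes in KO (3.01%) and 1534 in WT (9.82%). Genes higher in trained mice at that p were 0.973% of all genes in KO and 4.78% in WT. Among them stood 1 member in KO, Cdkn1a, and 3 in WT, Hif3a, Zbtb16 and Fkbp5. Over both genotypes 4.57% of all genes were higher and 6.59% lower at that p. Of the members 4 were higher (Hif3a, Zbtb16, Cdkn1a and Fkbp5) and 0 lower. The members were chosen with earlier results of these data known. DESeq2 called 7 genes in KO (0.0449%), 16 in WT (0.121%) and 69 over both genotypes (0.442%), with 0 members among them.

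**Figure D1:**
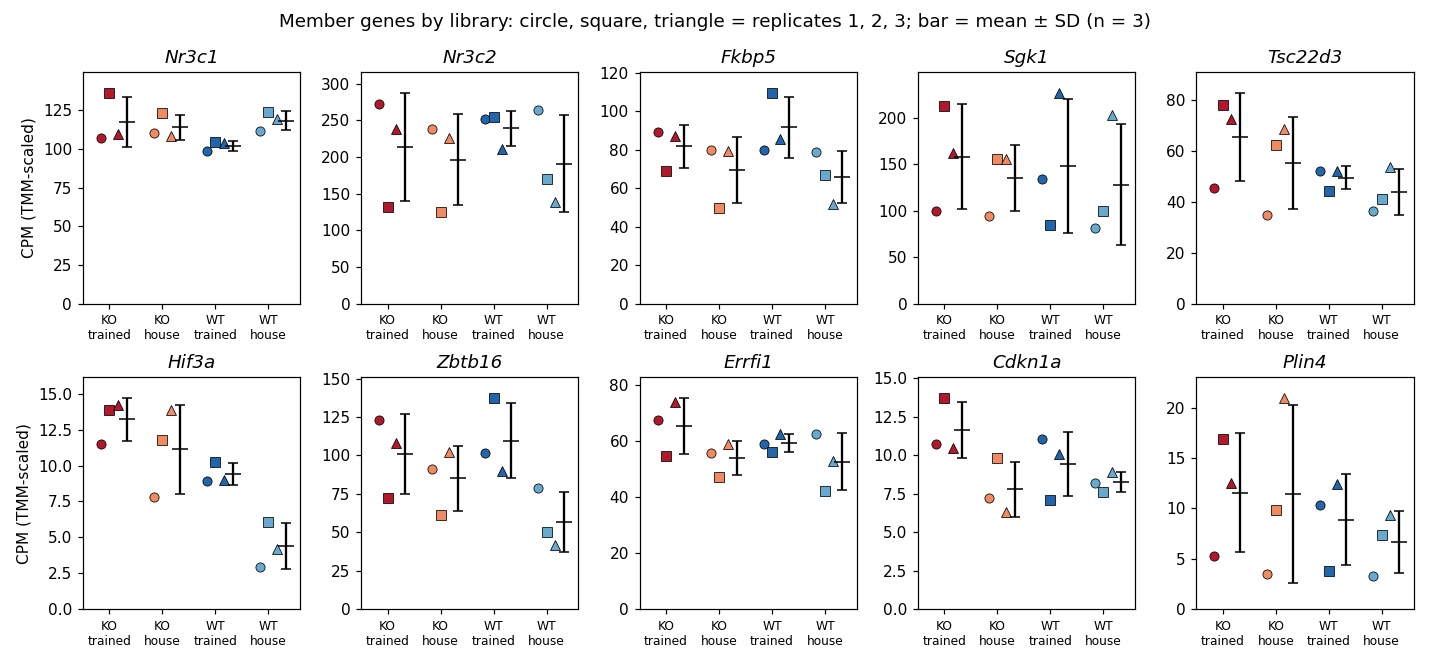
Level of each of the 10 genes in CPM (vertical axis, from 0) in the 4 groups; each point is 1 mouse, with circles, squares and triangles for replicates 1, 2 and 3, and bars show the mean ± SD of 3. Hif3a lies between 2.93 and 6.06 CPM in WT house controls, under all 9 other libraries, while the groups of Sgk1 and Plin4 overlap throughout.

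The members differed widely in level. Per kilobase of exon sequence in the GENCODE annotation of mm10, Nr3c2 was the most abundant at a mean of 32.4 CPM per kb over the 12 libraries, followed by Sgk1 at 29.1 CPM per kb. Zbtb16, Errfi1, Nr3c1 and Tsc22d3 followed at 16.7, 16.1, 14.7 and 12.3 CPM per kb, and Fkbp5 at 8.16 CPM per kb. Cdkn1a, Plin4 and Hif3a were the least abundant, at 2.61, 1.67 and 1.42 CPM per kb. Neighbours in this order overlapped in range, as for Nr3c2 (19.4 to 42.0 CPM per kb) and Sgk1 (16.6 to 46.3 CPM per kb), with the exception of Fkbp5 (5.24 to 11.6 CPM per kb) and Cdkn1a (1.78 to 3.85 CPM per kb). Below that gap, Plin4 spanned 0.561 to 3.62 CPM per kb and Hif3a 0.437 to 2.12 CPM per kb. The spread over libraries also differed: the highest library was 1.38 times the lowest for Nr3c1 and 6.46 times for Plin4. On the log2 scale the SD of Nr3c1 was larger than that of 25.4% of tested genes, that of Hif3a larger than that of 94.5%, and that of Plin4 larger than that of 97.2%.

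Nr3c1 (chromosome 18, 39410545 to 39519421, minus strand; mm10, as for all positions here) codes for the glucocorticoid receptor. In KO trained libraries it stood at 107, 136 and 109.6 CPM, against 110.5, 123 and 108 CPM in KO house controls, and the groups overlapped. The KO log2 fold change was 0.05 (95% interval -0.17 to 0.26, edgeR adjusted p = 1.00), and it was -0.07 without KO trained replicate 2, the highest of the 12 libraries. In WT trained libraries Nr3c1 stood at 98.5, 104 and 104 CPM, against 112, 124 and 119 CPM in WT house controls. All 3 WT trained libraries lay below all 3 WT house controls, a separation that 7.8% of tested genes showed in that direction. The WT log2 fold change was -0.21 (SE 0.10, 95% interval -0.42 to 0.00, edgeR adjusted p = 0.502). Among the members Nr3c1 varied least between libraries.

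Nr3c2 (chromosome 8, 76899442 to 77245012, plus strand) codes for the mineralocorticoid receptor, which is abundant in hippocampal neurons. It stood at 272, 132 and 238 CPM in KO trained libraries, against 238, 125 and 225 CPM in KO house controls. The WT values of Nr3c2 were 252, 254 and 211 CPM in trained libraries, against 265, 169.8 and 138 CPM in house controls. Both pairs overlapped, and KO replicate 2 was about as low in trained as in house control mice. The log2 fold changes were 0.12 in KO and 0.33 in WT (SE 0.32 each, edgeR adjusted p = 1.00 and 0.629). Without the 3 libraries rich in thalamic markers, which leaves 1 WT house control that is assumed to vary like the other groups, the WT value was -0.14. The KO value was -0.11 without KO house control replicate 2 and -0.09 without KO trained replicate 1.

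Fkbp5 (chromosome 17, 28399094 to 28517527, minus strand) codes for a co-chaperone that lowers the affinity of the glucocorticoid receptor for hormone and is itself induced by the receptor. In KO trained libraries it stood at 89.3, 68.97 and 87.03 CPM, against 79.8, 49.6 and 79.2 CPM in KO house controls, with overlap. The KO log2 fold change was 0.23 (95% interval -0.24 to 0.70, edgeR adjusted p = 1.00), and it was 0.046 without KO house control replicate 2, the lowest library. For WT mice, Fkbp5 stood at 79.8, 109.5 and 85.4 CPM in trained libraries, against 78.7, 67.1 and 51.9 CPM in house controls. All WT trained libraries lay above all WT house controls, as for 7.01% of tested genes, though the nearest libraries of the groups differed by little. The WT difference was 1.39-fold (log2 fold change 0.47, SE 0.21, 95% interval 0.00 to 0.95, edgeR adjusted p = 0.502), and its log2 value was 0.22 without the 3 libraries rich in thalamic markers. The interaction did not pass the threshold (edgeR adjusted p = 1.00), so a difference between genotypes in the response of Fkbp5 was not shown.

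Zbtb16 (chromosome 9, 48654297 to 48836222, minus strand) codes for a zinc finger transcription factor that is induced by glucocorticoids in several tissues. In KO trained libraries it stood at 123, 72.2 and 108 CPM, against 91.5, 61.4 and 102 CPM in KO house controls. The KO groups overlapped and replicate 2 was the lowest of each (log2 fold change 0.25, 95% interval -0.39 to 0.89, edgeR adjusted p = 1.00). The KO value of Zbtb16 was 0.065 without KO house control replicate 2 and 0.082 without KO trained replicate 1. In WT trained libraries Zbtb16 stood at 102, 137 and 89.9 CPM, against 78.6, 50.05 and 41.4 CPM in WT house controls. The WT groups did not overlap, as for 7.01% of tested genes in that direction. Their means were 109.7 ± 24.6 CPM when trained and 56.7 ± 19.5 CPM in house controls (SD, n = 3 each). This 1.94-fold difference (log2 fold change 0.95, SE 0.29, 95% interval 0.31 to 1.60) had an unadjusted p of 0.00771 in edgeR's fit over all genes and an adjusted p of 0.502. It was 0.90 on the log2 scale in the lower animal series alone, and 0.48 without the 3 libraries rich in thalamic markers. The authors' deposited table gives Zbtb16 an adjusted p of 0.153 for training in WT.

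Hif3a (chromosome 7, 17031507 to 17062427, minus strand) codes for a member of the hypoxia-inducible factor family, some isoforms of which oppose the other family members, and its transcript is known to rise with glucocorticoids. In KO trained libraries it stood at 11.5, 13.9 and 14.2 CPM, against 7.78, 11.8 and 13.9 CPM in KO house controls, with overlap and a log2 fold change of 0.25 (95% interval -0.32 to 0.81). The KO value of Hif3a was 0.043 without KO house control replicate 1, the lowest KO library, and 0.45 without KO house control replicate 3. The WT values of Hif3a were 8.91, 10.3 and 9.0 CPM in trained libraries, against 2.93, 6.06 and 4.17 CPM in house controls. The 3 WT house controls were the lowest of the 12 libraries. Their group did not overlap with the trained one, as for 7.01% of tested genes in that direction. The WT means were 9.39 ± 0.766 CPM when trained and 4.39 ± 1.58 CPM in house controls (SD, n = 3 each), a 2.13-fold difference. The log2 fold change of 1.09 (SE 0.26, 95% interval 0.51 to 1.67) ranked 23 of 15622 genes by unadjusted p (0.00177 in edgeR's fit), with an adjusted p of 0.502. DESeq2 gave an adjusted p of 0.0585, and the authors' deposited table, in which 19 genes pass (0.117%), gives 0.136. In the lower animal series alone the log2 fold change was 1.08. Over 23 alternatives it ran from 0.87 to 1.68 and the adjusted p from 0.0585 to 0.904, with the 1.68 and an adjusted p of 0.775 where the 3 libraries rich in thalamic markers were left out. The training effect in KO minus that in WT was -0.84 (SE 0.36, unadjusted p = 0.0418, edgeR adjusted p = 1), where 1.5% of genes had an unadjusted p under 0.05 and 0% passed after adjustment by edgeR or by DESeq2. Over 22 alternatives this interaction ran from -1.25 to -0.63, with adjusted p from 0.716 to 1. Over both genotypes Hif3a had an edgeR adjusted p of 0.414 at a log2 fold change of 0.67 (SE 0.18).

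Sgk1 (chromosome 10, 21882184 to 21999903, plus strand) codes for a serine/threonine kinase that regulates ion channels and transporters and is a classic early target of both corticosteroid receptors. It stood at 99.6, 212 and 162 CPM in KO trained libraries, against 94.4, 155 and 156 CPM in KO house controls. For WT mice, Sgk1 stood at 134, 84.6 and 227 CPM in trained libraries, against 81.2, 100.3 and 203 CPM in house controls. Each group held a library at or under 99.6 CPM, and the trained and house control groups overlapped in both genotypes. The log2 fold changes were 0.22 in KO (95% interval -0.74 to 1.19) and 0.21 in WT (95% interval -0.75 to 1.177), with edgeR adjusted p of 1.00 and 0.815. The WT value was -0.22 without WT trained replicate 3, the highest library, and -0.03 without WT house control replicate 1. The KO value was -0.04 without KO trained replicate 2 and 0.021 without KO house control replicate 1.

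Tsc22d3 (chromosome X, 140539528 to 140600659, minus strand) codes for a leucine zipper protein that mediates part of the anti-inflammatory action of glucocorticoids. In KO trained libraries it stood at 45.5, 77.96 and 72.4 CPM, against 34.9, 62.04 and 68.7 CPM in KO house controls, with overlap (log2 fold change 0.24, 95% interval -0.34 to 0.82). In WT trained libraries Tsc22d3 stood at 51.9, 44.3 and 52.2 CPM, against 36.4, 40.97 and 53.7 CPM in WT house controls, also with overlap (log2 fold change 0.18, 95% interval -0.41 to 0.76). The edgeR adjusted p was 1.00 in KO, where the log2 value was -0.00097 without KO house control replicate 1, and 0.749 in WT.

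Promoter sequence bears on these targets because the receptor is known to bind an element made of the hexamer AGAACA, then 3 bases of any kind, then TGTTCT, which is the same hexamer on the other strand. RefSeq promoter windows of 300 bases (GRCm38.p6, 250 bases before an annotated start and 50 after) were read for 8 members, 17 windows in all. Nr3c1 and Zbtb16 were not among these members. The hexamer, searched on both strands, was in 4 of these 17 windows, 3 of 6 for Sgk1 and 1 of 3 for Tsc22d3, and in 19% of the 32851 windows of the genome. The full element, which contains the hexamer on both strands, was in 1 of the 17 and in 3 of the 32851 (0.00913%). The 250 bases before the start are shown for that Sgk1 window (chr10:21993640-21993889, plus strand), for the Tsc22d3 window with a hexamer (chrX:140600523-140600772, minus strand) and for Hif3a (chr7:17062428-17062677, minus strand), the member with the largest training difference. Hexamers are in capitals.
Sgk1: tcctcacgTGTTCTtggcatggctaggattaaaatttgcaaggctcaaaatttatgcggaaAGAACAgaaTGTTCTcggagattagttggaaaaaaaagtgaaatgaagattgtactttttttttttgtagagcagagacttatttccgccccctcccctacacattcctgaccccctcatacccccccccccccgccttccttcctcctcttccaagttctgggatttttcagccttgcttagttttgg
Tsc22d3: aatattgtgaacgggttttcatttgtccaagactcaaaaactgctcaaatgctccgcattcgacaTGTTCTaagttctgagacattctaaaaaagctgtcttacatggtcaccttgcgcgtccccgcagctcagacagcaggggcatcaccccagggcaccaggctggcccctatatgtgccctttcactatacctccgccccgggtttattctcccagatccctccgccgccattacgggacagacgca
Hif3a: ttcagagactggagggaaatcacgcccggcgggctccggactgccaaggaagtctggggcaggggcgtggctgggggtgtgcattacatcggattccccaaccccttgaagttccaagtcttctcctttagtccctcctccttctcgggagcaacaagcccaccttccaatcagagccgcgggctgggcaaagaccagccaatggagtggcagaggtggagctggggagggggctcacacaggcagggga
In the Sgk1 window the full element begins 189 bases before the start and a further hexamer 242 bases before it, and in the Tsc22d3 window the hexamer begins 185 bases before the start. The Hif3a window held no hexamer, which says only that these letters are not in it. The values of Sgk1, with the full element in 1 of its 6 windows, overlapped between trained and house control mice in both genotypes. Which of its starts is used in this tissue was not tested. A match to these letters is a description of the sequence and not a measured binding site.

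Errfi1 (chromosome 4, 150853919 to 150868892, plus strand) codes for an inhibitor of the epidermal growth factor receptor that glucocorticoids induce. It stood at 67.5, 54.5 and 73.9 CPM in KO trained libraries, against 55.6, 47.1 and 58.7 CPM in KO house controls. The WT values of Errfi1 were 58.9, 56.1 and 62.5 CPM in trained libraries, against 62.5, 42.2 and 52.9 CPM in house controls. Trained and house control groups overlapped in both genotypes (log2 fold change 0.28, SE 0.15 in KO and 0.17, SE 0.15 in WT). The edgeR adjusted p was 1.00 in KO and 0.597 in WT. The WT value was -0.08 without the 3 libraries rich in thalamic markers.

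Cdkn1a (chromosome 17, 29090976 to 29100727, plus strand) codes for a cyclin-dependent kinase inhibitor that is a target of the tumour suppressor p53 as well as of glucocorticoid signalling. It stood at 10.7, 13.7 and 10.5 CPM in KO trained libraries, against 7.19, 9.79 and 6.32 CPM in KO house controls. The KO groups did not overlap, as for 3.34% of tested genes in that direction, and the means were 11.6 ± 1.80 CPM when trained and 7.77 ± 1.80 CPM in house controls (SD, n = 3 each). The 1.49-fold difference (log2 fold change 0.58, SE 0.20, 95% interval 0.13 to 1.03) had an unadjusted p of 0.0165 in edgeR's fit over all genes and an adjusted p of 1.00. For WT mice, Cdkn1a stood at 11.1, 7.11 and 10.1 CPM in trained libraries, against 8.18, 7.61 and 8.92 CPM in house controls, with overlap (log2 fold change 0.19, 95% interval -0.26 to 0.64). The interaction had an edgeR adjusted p of 1.00, so a difference between genotypes in the response of Cdkn1a was not shown. Over both genotypes the log2 fold change was 0.39 (SE 0.14, edgeR adjusted p = 0.422).

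Plin4 (chromosome 17, 56100591 to 56109803, minus strand) codes for a protein of the perilipin family, which coats lipid droplets. It stood at 5.24, 16.9 and 12.5 CPM in KO trained libraries, against 3.51, 9.86 and 20.9 CPM in KO house controls. In WT trained libraries Plin4 stood at 10.4, 3.81 and 12.4 CPM, against 3.24, 7.36 and 9.29 CPM in WT house controls. The spread within each group exceeded the difference between groups, and the log2 fold changes of 0.01 in KO and 0.42 in WT had SEs of 0.66 and 0.67. The edgeR adjusted p was 1.00 in KO and 0.768 in WT, and leaving out a single KO library turned the KO value to between -0.42 and -0.04 in 4 of 6 cases. Without KO replicate 2 of both treatments, the KO libraries rich in striatal markers, it was -0.46.

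**Figure D2:**
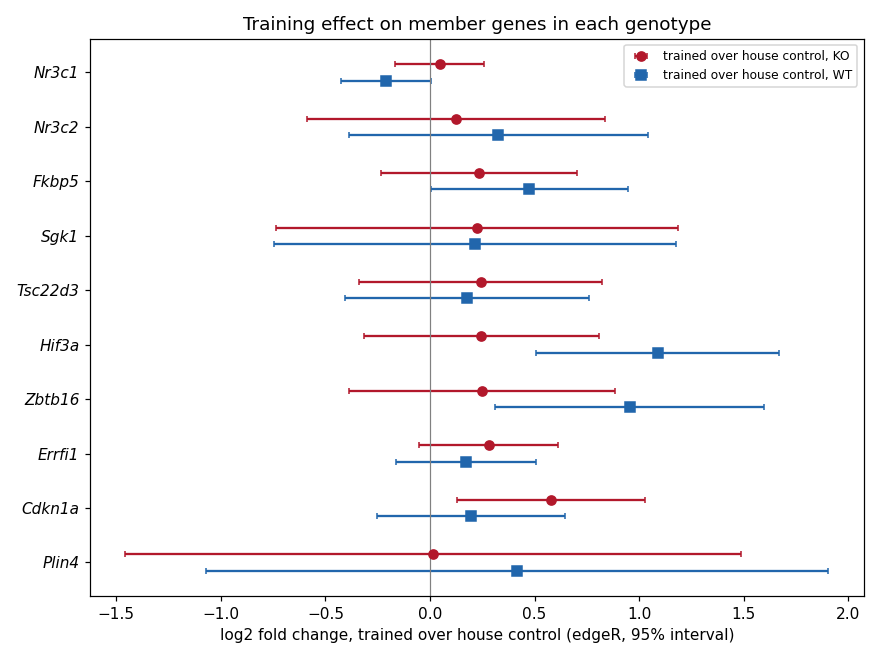
Log2 fold change of each member, trained over house control (horizontal axis), in KO mice (red circles) and WT mice (blue squares), with 95% intervals from edgeR's fit to 12 libraries. The KO interval of Cdkn1a (0.13 to 1.03) and the WT intervals of Hif3a (0.51 to 1.67) and Zbtb16 (0.31 to 1.60) lie above 0, before any adjustment for the number of genes. The WT interval of Fkbp5 also lies above 0 before adjustment, though its lower end rounds to 0.

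Left-out libraries moved several of these values. Of the 3 libraries rich in thalamic markers, 2 are WT house controls and 1 is a KO house control. The 2 WT house controls, replicates 2 and 3, also held the highest summed choroid plexus markers, at 7987 and 15020 CPM. WT trained replicate 3, at 7838 CPM of choroid plexus markers, was kept. Thalamic and choroid plexus content thus cannot be told apart here. Without the 3 libraries the WT comparison rests on a single house control, replicate 1. That library was the lowest of the 12 for Hif3a, Sgk1 and Plin4. Among the WT house controls it was the lowest for Tsc22d3 and the highest for Zbtb16, Fkbp5, Nr3c2 and Errfi1. The WT shifts given next cannot be told apart from the level of that 1 mouse. Without the 3 libraries rich in thalamic markers, the WT log2 fold change was 1.46 for Plin4, 0.88 for Sgk1 and 0.44 for Tsc22d3, beside 0.42, 0.21 and 0.18 with all libraries. That of Hif3a was 1.68 beside 1.09, while those of Zbtb16 and Fkbp5 were 0.48 and 0.22 beside 0.95 and 0.47. Cdkn1a stood at 0.21, Errfi1 at -0.077, Nr3c1 at -0.13 and Nr3c2 at -0.14 in the same WT fit. The KO value was 0.78 for Plin4, 0.45 for Cdkn1a, 0.44 for Hif3a, 0.43 for Tsc22d3, 0.41 for Zbtb16 and 0.34 for Sgk1, and lay between 0.013 and 0.35 for the other 4. Without KO replicate 2 of both treatments, the KO pair rich in striatal markers, the KO value of Sgk1 was 0.068 and that of Fkbp5 0.15, beside 0.22 and 0.23. WT house control replicate 3, with 999 CPM of these markers, was kept. In that fit Cdkn1a had 0.65, Errfi1 0.31, Hif3a 0.25, Zbtb16 0.26, Tsc22d3 0.19, Nr3c2 0.14, Nr3c1 -0.011 and Plin4 -0.46. No member passed the threshold for training without either set of libraries.

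Several members were low in the same libraries as markers of particular cells. The 4 libraries with the lowest Nr3c2, Fkbp5, Zbtb16 and Errfi1 were the same 4 for each gene: KO trained replicate 2, KO house control replicate 2, and WT house control replicates 2 and 3. These were also the 4 lowest in the summed dentate granule markers, with 248.5 to 485 CPM against 553 to 998 CPM in the other 8. The 4 libraries with the lowest Sgk1 and Plin4 were KO trained replicate 1, KO house control replicate 1, WT trained replicate 2 and WT house control replicate 1. These were the 4 lowest in the summed oligodendrocyte markers, with 2798 to 5542 CPM against 6494 to 13920 CPM in the other 8. None of the 7 dentate granule or 9 oligodendrocyte markers was at 0 in any library. The 4 libraries lowest in dentate granule markers were the 4 highest in oligodendrocyte markers (8853 to 13920 CPM). The 4 lowest in oligodendrocyte markers were the 4 highest in dentate granule markers (658 to 998 CPM). Following 1 list thus cannot be told apart from opposing the other. Of the 4 libraries lowest in Sgk1 and Plin4, 3 were also among the 4 lowest in each of choroid plexus, leptomeningeal, thalamic and striatal markers. These are descriptions without a test.

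**Figure D3:**
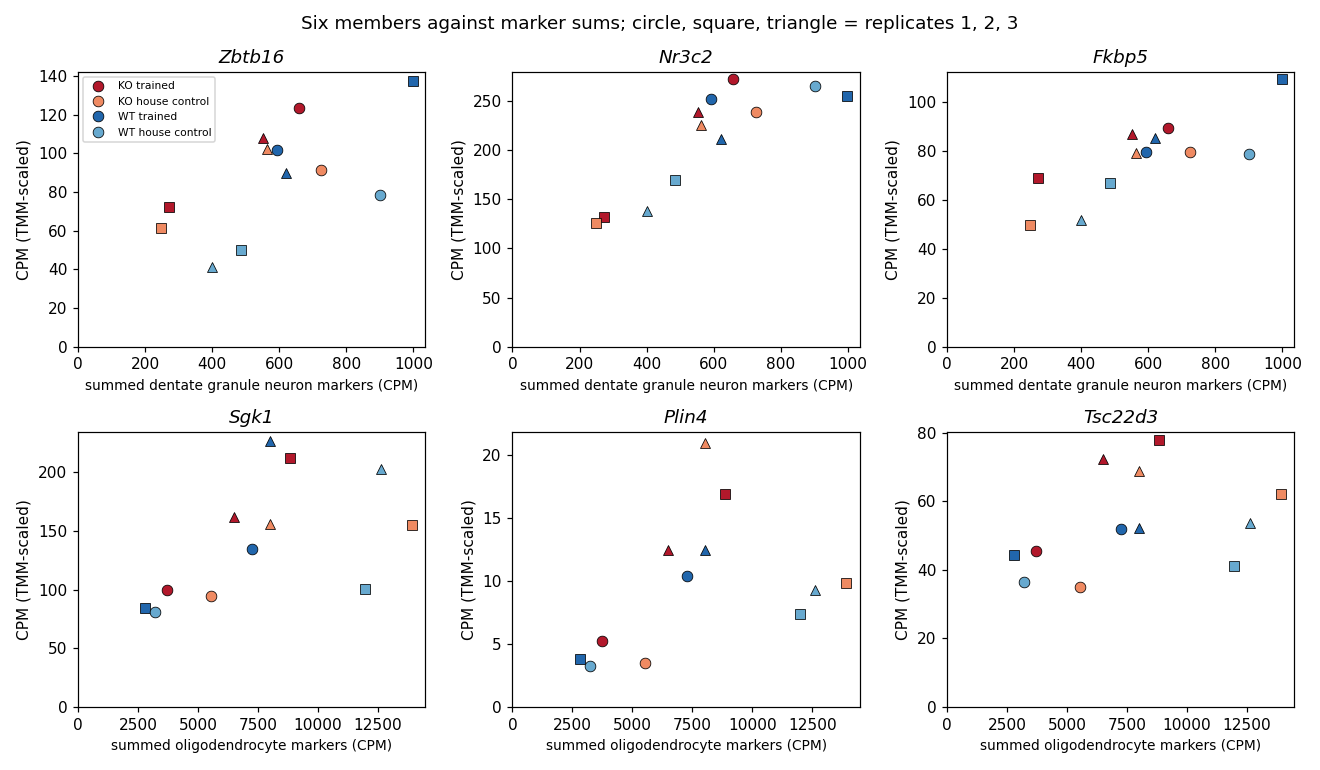
Level of 6 members in CPM (vertical axes) against the summed level of dentate granule neuron markers (upper row) or oligodendrocyte markers (lower row) in CPM; each point is 1 of 12 libraries, coloured by group, with circles, squares and triangles for replicates 1, 2 and 3. The 4 libraries with at most 485 CPM of dentate markers held the lowest Zbtb16, Nr3c2 and Fkbp5, and the 4 with at most 5542 CPM of oligodendrocyte markers the lowest Sgk1 and Plin4.

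Fits with a marker level as a covariate, chosen after the data were seen, gave the training differences at equal marker level. With dentate granule markers as the covariate, the WT log2 fold change of Zbtb16 was 0.78 (unadjusted p = 7.00e-05, edgeR adjusted p = 0.407), beside 0.95 without it. That of Fkbp5 was 0.33 (edgeR adjusted p = 0.407), and that of Hif3a was 1.19. In that fit Plin4 was 0.79, Sgk1 0.49 and Tsc22d3 0.34, beside 0.42, 0.21 and 0.18, and Nr3c2 was 0.16 beside 0.33. With oligodendrocyte markers as the covariate, Sgk1 over both genotypes was 0.51 (unadjusted p = 0.0317, edgeR adjusted p = 0.528), beside 0.22 without it. Plin4 was 0.64 and Tsc22d3 0.37 in the same fit, beside 0.21 and 0.21. Other members were lower with this covariate: Zbtb16 was 0.38 beside 0.60, Fkbp5 0.21 beside 0.35 and Nr3c2 0.025 beside 0.23. Hif3a was 0.81, Cdkn1a 0.49, Errfi1 0.16 and Nr3c1 -0.040, beside 0.67, 0.39, 0.23 and -0.08. In KO alone Zbtb16 was 0.026 beside 0.25, and Fkbp5 0.10 beside 0.23, with oligodendrocyte markers. With dentate granule markers these KO values were 0.20 for Zbtb16 and 0.23 for Fkbp5. In WT alone with oligodendrocyte markers, Zbtb16 was 0.74 and Fkbp5 0.31. No member passed the threshold for training under either covariate. Over all alternatives for training in WT, the adjusted p of Zbtb16 ran from 0.147 to 1 and that of Fkbp5 from 0.162 to 1.

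Between the genotypes Hif3a was the member with the largest difference. In house controls it stood at 7.78, 11.8 and 13.9 CPM in KO libraries, against 2.93, 6.06 and 4.17 CPM in WT libraries, without overlap, as for 6.94% of tested genes in that direction. The difference was 2.52-fold (log2 fold change 1.33, SE 0.26, 95% interval 0.75 to 1.92, unadjusted p = 0.000410), and by edgeR the adjusted p was 0.200 in a comparison where 2 genes passed (0.0128%). DESeq2 on the same 12 libraries called 202 genes (1.69%) and Hif3a among them (adjusted p = 0.000655). The authors' deposited table, in which 76 genes pass (0.558%), gives Hif3a a log2 fold change of 1.34 and an adjusted p of 0.0359. The call thus differed between tools, and the edgeR adjusted p was 0.0484 with oligodendrocyte markers as a covariate and 0.0505 with dentate granule markers. Over 23 alternatives the log2 fold change ran from 1.11 to 1.73 and the adjusted p from 0.000655 to 0.94. The training comparison in WT and this genotype comparison share the 3 WT house control libraries, which were the lowest for Hif3a, so neither stands as separate evidence for the other. Cell markers also differed between these house controls. Median log2 fold changes were -1.98 for choroid plexus, -1.54 for leptomeningeal, -0.61 for thalamic and -0.31 for dentate granule markers. They were 0.51 for CA1 and 0.36 for striatal and septal markers, and -0.06 for oligodendrocyte and 0.05 for astrocyte markers. Beyond the 2 covariate fits, the part of tissue content in the Hif3a difference was not tested.

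In trained mice Hif3a stood at 11.5, 13.9 and 14.2 CPM in KO libraries, against 8.91, 10.3 and 9.0 CPM in WT libraries. These groups also did not overlap, as for 7.61% of tested genes in that direction. The log2 fold change was 0.49 (95% interval -0.07 to 1.05, edgeR adjusted p = 0.811), where 2 genes passed (0.0128%), and DESeq2 called 106 genes (0.752%) but not Hif3a. The authors' deposited table, with 122 genes passing (0.834%), gives it an adjusted p of 0.194. Nr3c1 was the other member whose trained groups did not overlap, at 107, 136 and 109.6 CPM in KO libraries, against 98.5, 104 and 104 CPM in WT libraries. Over both treatments the log2 fold change of Hif3a was 0.91 (SE 0.18, edgeR adjusted p = 0.0609), just outside the threshold that 90 genes passed (0.576%). DESeq2, with 725 genes called (5.04%), gave it an adjusted p of 0.000301. The edgeR adjusted p was 0.0455 without KO house control replicate 1, 0.0449 without WT house control replicate 1 and 0.0483 without WT house control replicate 2. It was 0.0185 with oligodendrocyte markers and 0.0352 with dentate granule markers as a covariate, and over 23 alternatives it ran from 0.000301 to 0.583, with a positive difference in all of them. Over both treatments the median log2 fold change was 0.68 for CA1 markers and 1.12 for striatal and septal markers. It was -0.41 for dentate granule, -1.36 for choroid plexus and -0.89 for leptomeningeal markers.

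The other 9 members did not pass the threshold between the genotypes in any of these 3 comparisons by edgeR or by DESeq2. Zbtb16 passed only with dentate granule markers as a covariate, at a log2 fold change of 0.80 in house controls (edgeR adjusted p = 0.0409) and 0.51 over both treatments (edgeR adjusted p = 0.0194). In house controls it stood at 91.5, 61.4 and 102 CPM in KO libraries, against 78.6, 50.05 and 41.4 CPM in WT libraries, with overlap. Tsc22d3 averaged 60.2 ± 16.7 CPM in the 6 KO libraries and 46.6 ± 7.08 CPM in the 6 WT libraries (SD), with a log2 fold change of 0.37 and an edgeR adjusted p of 0.401. Over both treatments 8 of 10 members were positive, with a median of 0.10 beside -0.01 over all genes, of which 48% were positive. The receptor Nr3c1 averaged 116 ± 11.6 CPM in KO and 110.3 ± 9.81 CPM in WT, and Nr3c2 205.2 ± 61.4 CPM in KO and 215 ± 51.7 CPM in WT (SD, n = 6 each).

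Other genes of the pathway were read from lists chosen with earlier results of these data known, for training over both genotypes. Of the 26 other glucocorticoid-responsive genes 25 were tested, of which 18 had a positive log2 fold change and 0 passed after adjustment. Their median was 0.18, beside -0.01 over all tested genes. At an unadjusted p under 0.05 the list held 5 higher genes and 0 lower, beside 11.2% of all genes (4.57% higher and 6.59% lower), and DESeq2 called 0 of them. Per1, a clock gene with a glucocorticoid response element, stood at 89.1, 101 and 90.7 CPM in KO trained libraries. In KO house controls it had 71.6, 79.6 and 74.7 CPM, without overlap, as for 3.34% of tested genes in that direction. The WT values of Per1 were 72.1, 89.7 and 85.6 CPM in trained libraries, against 72.2, 63.1 and 83.5 CPM in house controls, with overlap (log2 fold change over both genotypes 0.24, SE 0.08, edgeR adjusted p = 0.414). Klf9, a transcription factor gene induced by stress hormones, had a log2 fold change of 0.22 (SE 0.07), Rasd1, a small G protein gene, 0.41 (SE 0.16), and Ddit4, an inhibitor of mTOR signalling, 0.19 (SE 0.08). The edgeR adjusted p of these 3 lay between 0.414 and 0.436.

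Of the 14 receptor chaperones and immunophilins, 13 were positive with a median of 0.11, beside -0.01 over all tested genes. By edgeR 0 passed, with 3 at an unadjusted p under 0.05, and DESeq2 called 0. Dnajb1, a heat shock cochaperone, stood at 54.4, 51.2 and 49.6 CPM in KO trained libraries, against 47.8, 43.95 and 47.6 CPM in KO house controls. For WT mice, Dnajb1 stood at 49.9, 51.3 and 48.2 CPM in trained libraries, against 41.6, 40.2 and 46.1 CPM in house controls. All 6 trained libraries lay above all 6 house controls (log2 fold change 0.19, SE 0.05, edgeR adjusted p = 0.414). Of the 14 genes 1 was so separated, and of all tested genes 0.198%, but Dnajb1 was picked by its p in this comparison. Dnaja1, Stip1 and Hspa4, also of the chaperone cycle that prepares the receptor for hormone, had log2 fold changes of 0.16, 0.12 and 0.13. Of the 12 nuclear receptor coregulators 11 were positive with a median of 0.12. By edgeR 0 passed, with 1 at an unadjusted p under 0.05, and DESeq2 called 0. The Mediator subunit gene Med14 had 0.28 (SE 0.09, edgeR adjusted p = 0.414), and the coregulator genes were at 0.31 for Nrip1, 0.11 for Smarca4 and 0.08 for Ncoa2.

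The genes that set local hormone supply did not share that sign. Of the 6 genes of steroid supply and transport 4 were tested and 0 were positive, with a median of -0.12. By edgeR 0 passed, with 1 lower at an unadjusted p under 0.05, and DESeq2 called 0. Abcb1a, which codes for a drug and steroid efflux pump of the blood-brain barrier, was at -0.28 on the log2 scale (SE 0.10; edgeR gave an adjusted p of 0.422), and Abcb1b was at -0.13. Hsd11b1, the enzyme that regenerates corticosterone in the tissue, had -0.03 (SE 0.15), and H6pd, which supplies its cofactor, -0.11. Of the 11 stress peptides and their receptors 9 were tested and 3 were positive, with a median of -0.10, and 0 passed by edgeR, by DESeq2 or at an unadjusted p under 0.05. Among them Avpr1a (-0.81, SE 0.37), Oxtr (0.30) and Avp (-0.76) did not pass, and the -1.40 of Pomc rested on 25.1 CPM in KO house control replicate 1, where the other 11 libraries had 0.627 to 2.22 CPM. Without that library Pomc was 0.14.

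The lists that neighbour Cdkn1a and Hif3a showed no common sign. Of the 11 other targets of p53, 7 were positive with a median of 0.02. By edgeR 0 passed, with 1 at an unadjusted p under 0.05, and DESeq2 called 0. The kinase gene Plk2 had 0.29 (SE 0.10, edgeR adjusted p = 0.418), Btg2 0.14, Phlda3 -0.30 and Eda2r -0.65. Of the 14 genes of the hypoxia pathway 7 were positive with a median of 0.00. By edgeR 0 passed, with 1 higher and 1 lower at an unadjusted p under 0.05, and DESeq2 called 1. This was Ldha, lactate dehydrogenase A, which had 0.22 (SE 0.05, edgeR adjusted p = 0.414) and an adjusted p by DESeq2 of 0.00898. Epas1, which codes for another hypoxia-inducible factor subunit, had -0.20 (SE 0.06), Egln3 -0.23 and Bnip3 0.09.

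The 10 rapid activity-induced genes, transcribed within minutes of neuronal firing, were read in the same way. All 10 were positive, with a median of 0.85 over both genotypes, 1.03 in KO and 0.58 in WT, beside member medians of 0.23, 0.24 and 0.27. How long after training the tissue was taken is not stated. The size of the response thus cannot be compared between rapid and slower genes. Trained libraries lay above house controls without overlap for 10 of the 10 in KO mice and 6 of the 10 in WT mice, where 3.34% and 7.01% of all tested genes did. Fos stood at 19.7, 19.1 and 20.6 CPM in KO trained libraries, against 6.32, 6.70 and 4.73 CPM in KO house controls. Its WT trained libraries had 13.6, 14.98 and 10.2 CPM, against 3.50, 3.01 and 10.7 CPM in WT house controls, where replicate 3 was as high as a trained library. By edgeR 0 of the 10 passed, though all 10 had an unadjusted p under 0.05, with adjusted p of 0.353 for Nr4a1 and Egr4 and 0.379 for Arc and Fos, while DESeq2 called 7 of the 10, including these 4 (adjusted p of 2.49e-05, 0.000121, 0.000630 and 0.000757). Cell markers differed in sign beside these lists: 6 of 6 CA1 markers and 6 of 7 dentate granule markers were positive, with medians of 0.27 and 0.18, and 0 of 9 oligodendrocyte, 0 of 9 astrocyte and 0 of 7 endothelial markers were, with medians of -0.60, -0.28 and -0.32. Of neighbouring tissue, 0 of 6 thalamic, 0 of 8 striatal and septal and 0 of 9 choroid plexus markers were positive, with medians of -0.78, -0.64 and -0.22. Of the leptomeningeal fibroblast markers 1 of 8 was positive, of mural cell markers 0 of 5 and of microglial markers 1 of 7, with medians of -0.78, -0.37 and -0.16, and the 1 blood marker tested was at -0.66. In WT mice alone the medians were -0.93 for thalamus, -1.28 for leptomeningeal fibroblasts, -1.39 for striatum and septum, -0.96 for choroid plexus and -0.62 for mural cells. In KO mice alone the same 5 medians were -0.64, -0.23, 0.27, 0.50 and -0.05. The part of these markers in the list medians was not tested.

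**Figure D4:**
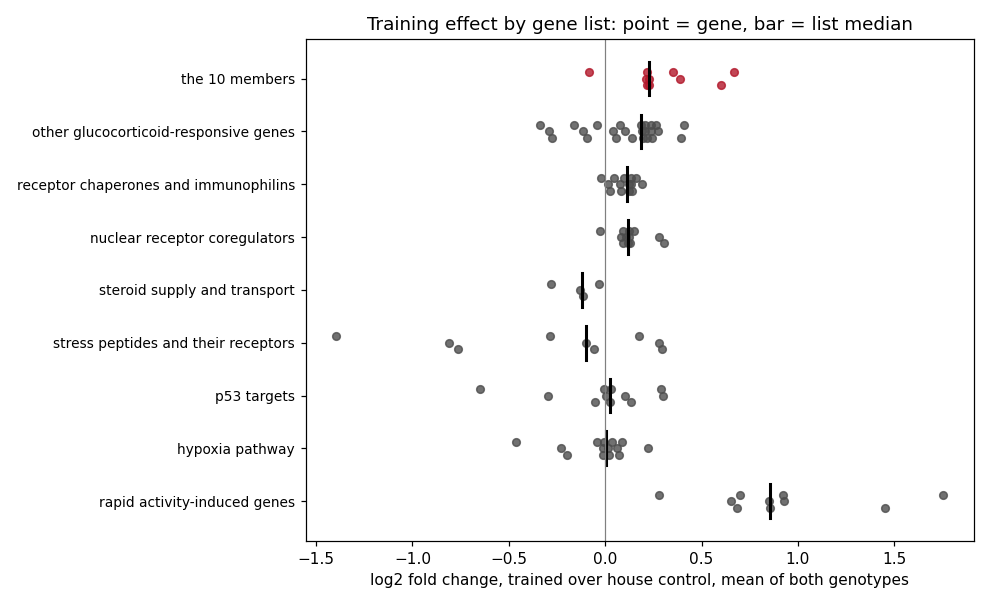
Log2 fold change for training over both genotypes (horizontal axis) of the tested genes of 9 lists; each point is 1 gene and each bar the list median. The members have a median of 0.23, and the rapid activity-induced genes, at 0.85, lie farthest from 0.

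Genes with the most similar profiles were sought among 14101 tested genes with a mean of at least 1 CPM, by the root mean square difference of centred log2 CPM over 12 libraries, and were named where it was under 0.5 times the member's own SD. For Nr3c2, 195 genes were that close, led by Sphkap (0.0938), Neurod2 (0.0958) and Trpc5 (0.0960). For Fkbp5 there were 111, led by Ippk (0.0703), Dhx33 (0.0832) and Smim3 (0.102), and for Zbtb16 there were 76, led by Chrna7 (0.175), Klhl3 (0.187) and Cacna2d1 (0.200). Errfi1 had 7, led by Tigar (0.0966), Chst11 (0.101) and Atp6v1b2 (0.103), and Nr3c1 had 3, Rpl13a (0.0557), Rbm34 (0.0625) and Rassf1 (0.0630). Sgk1 had 2, Pdk4 (0.186), which is among the other glucocorticoid-responsive genes, and Adipor2 (0.249). Tsc22d3, Hif3a, Cdkn1a and Plin4 had 0. These profiles share libraries and depth, and the likeness is a description over the 12 libraries.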

How the data were processed

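Polyadenylated RNA of the dorsal hippocampus was sequenced from 12 mice, and the authors deposited raw read counts per gene symbol for each library. Per the submitters' processing notes, the build was mm10 and the tools were HTSeq 0.9.1, TopHat2 2.1.1, Bowtie2 2.3.4.2, cutadapt 1.18 and DESeq2 1.18.1. Whether counting used strand is not given, so reads of a gene and of an antisense or overlapping partner cannot be separated. The authors also deposited 4 comparison tables, which per the file headers hold a mean normalized count per gene (a signal averaged over the compared libraries), a log2 fold change with its standard error, a test statistic (a score) and p-values before and after adjustment, and which were used only where the text names them.

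Counts were read in R 4.3.3. Genes were kept by edgeR's filter (minimum count 10, minimum total 15), libraries were scaled by TMM, and group means were fitted to all 12 libraries with edgeR 4.0.16 (robust quasi-likelihood, with limma 3.58.1). Contrasts were trained against house control in KO, in WT and over both, KO against WT in each treatment and over both, and the interaction, with Benjamini-Hochberg adjustment over 15622 genes and a threshold of 0.05. The SE is that implied by the test statistic. Library totals were 19737929 to 27427076 counts. The labels give 1 mouse per library, and no pair of libraries within a group was a duplicate, their counts differing by 14.9 to 105 times the sampling noise (chi-square per degree of freedom).

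The members and the gene lists were chosen with earlier results of these data known. From each other list up to 4 genes with the smallest unadjusted p for training over both genotypes were named, with up to 3 genes of most similar profile for each member. Alternatives were DESeq2 1.42.0, other scaling, other filters, animal series as a covariate or the lower series alone, the 6 compared libraries alone, and leaving out libraries. Fits with oligodendrocyte or dentate granule neuron markers as a covariate, and a fit of the higher animal series alone, were added after seeing the data.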

Additional observations from a re-analysis of the deposited data

How the results depend on the processing

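No paired analysis was possible because the labels give no shared replicate numbers. Of the fold changes recomputed under the alternatives, 1559 kept their direction and their side of the threshold, 15 newly passed it, 3 no longer passed it and 30 turned in sign; the cause was not tested.

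With DESeq2 the genes called numbered 7 for training in KO, 16 in WT and 69 over both genotypes, each beside 0 by edgeR, and 202, 106 and 725 for KO against WT in house controls, in trained mice and over both treatments, beside 2, 2 and 90. For the same 3 genotype comparisons the count was 4, 4 and 166 with animal series as a covariate, and 1, 1 and 2 in the lower series alone. It was 0, 1 and 26 without KO replicate 2 of both treatments, the KO libraries rich in striatal markers. With oligodendrocyte markers as a covariate it was 126, 7 and 804. With dentate granule markers it was 141 in house controls and 1013 over both treatments. The 6 compared libraries alone gave 0 in house controls and 1 in trained mice, and no filter on low counts gave 59 over both treatments. The lower series alone gave 1 gene for training over both genotypes. Between genotypes, leaving out 1 library gave 0 to 12 among house controls (12 when WT house control replicate 1 was left out), 1 to 2 in trained mice, 8 to 268 over both treatments (8 without WT trained replicate 3, 268 without WT house control replicate 1), and 0 to 1 for training in KO, in WT and over both. Members called between genotypes numbered 1 in house controls with DESeq2, with dentate markers and with oligodendrocyte markers, and over both treatments 1, 2 and 1; leaving out 1 library gave 0 to 1 over both treatments. Mbnl2 kept its call over both treatments in 20 of 23 alternatives. The exceptions were the lower series alone (edgeR adjusted p = 0.340), the higher series alone and the fit without the 3 libraries rich in thalamic markers. The log2 fold changes in these 3 fits were 0.50, 0.53 and 0.49.

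Among the members, training in KO turned to -0.011 for Nr3c1 and -0.46 for Plin4 without KO replicate 2 of both treatments. It turned to -0.093 for Nr3c2 with oligodendrocyte markers and to -0.042 for Plin4 with dentate markers. Leaving out 1 library, the log2 fold change for training in KO ran from -0.067 to 0.11 for Nr3c1, -0.11 to 0.38 for Nr3c2, -0.42 to 0.80 for Plin4, -0.040 to 0.47 for Sgk1 and -0.00097 to 0.45 for Tsc22d3. In WT, Errfi1 was -0.077 and Nr3c2 -0.14 without the 3 libraries rich in thalamic markers, and leaving out 1 library gave -0.22 to 0.71 for Sgk1. Over both genotypes Plin4 was -0.023 and Hsd11b1 0.016 without KO replicate 2 of both treatments. With oligodendrocyte markers Btg2 was -0.021 and Phlda3 0.037. Leaving out 1 library gave -0.12 to 0.10 for Hsd11b1, -1.67 to 0.14 for Pomc and -0.00020 to 0.47 for Sgk1 over both genotypes.

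With 3 mice per group an exact permutation test could not go below 0.1, and the wide intervals of Sgk1 and Plin4 leave sizeable differences undetectable. The higher animal series, with a single library in each group, was fitted alone without an interaction, which leaves 1 residual degree of freedom. It called 0 genes for training over both genotypes and 114 for KO against WT over both treatments, with 0 members in either. For training, the log2 fold changes there were 0.59 for Zbtb16, 0.54 for Hif3a and 0.43 for Fkbp5, while Plin4 (-0.17), Hsd11b1 (0.23), Avpr1a (0.037) and Egln3 (0.054) turned in sign. Between genotypes Hif3a was 1.17 (edgeR adjusted p = 0.115).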
